A study of Mus musculus with 19 samples.

Results

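MED1 knockout 3T3-L1 cells were compared with wild-type 3T3-L1 cells on day 2 of differentiation into fat cells, on 4 arrays of the 19 in the series. The 4 arrays were those whose title gives day 2 and 3T3-L1: 2 replicates of the wild type and 2 of the knockout. 3T3-L1 is a mouse fibroblast line of preadipocyte character, and a mix of hormones starts its conversion into fat cells. The knockout cells were clones made from the parental line with CRISPR/Cas9, and each knockout array holds RNA pooled from individual clones. The wild type is the uncloned parent line differentiated alongside them, so the loss of MED1 and any change that came with cloning cannot be told apart. The same cells were measured on day 0, before the hormones, on 4 more arrays, and the other 11 arrays held interscapular brown fat of mice with conditional Med1 alleles. Values are log2 signals of 22180 genes, 1 transcript cluster per gene, from a whole-transcript array.

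The labels disagree on the day of some arrays. Both arrays titled day 2 replicate 1 carry a source label for cells sampled before the hormones, and both titled day 0 replicate 2 carry the label for 2 days after them. Days were taken from the title here, and the replicate 2 pair is the part of the day 2 comparison that both labels put on day 2. The hormone-responsive genes Fkbp5 and Glul bear on the titles. Fkbp5 read 8.73 to 9.0 on the 4 arrays titled day 2 and 5.85 to 6.27 on the 4 titled day 0. Glul read 9.77 to 10.39 and 6.27 to 6.87. The 4 arrays with conflicting labels thus read with the other arrays of their title day, and no array was moved to another group for these values. The replicate 2 difference is given for the main genes, and the number of calls with days by the source label is given after the results. The labels do not say whether replicates were separate cultures, so p-values measure only the spread between these arrays, which may be technical.

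MED1 is a subunit of Mediator, the large complex that carries signals from DNA-bound transcription factors to RNA polymerase II. It holds motifs through which nuclear receptors bind it, and PPARG, the nuclear receptor required for fat cell formation, is among its known partners. In 3T3-L1 cells the cocktail first induces CEBPB and CEBPD, which then switch on Pparg and Cebpa, and these in turn switch on the genes of lipid storage.

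The array medians on day 2 ran from 4.69 to 4.79, and the lower quartiles from 3.5 to 3.56. All 4 arrays carried fibroblast RNA: Vim, an intermediate filament gene of mesenchymal cells, lay between 12.43 and 12.54, and Col1a1, the main fibrillar collagen gene of fibroblasts, between 10.66 and 10.99. Of 5 white blood cell markers, Ptprc, the defining one, was under its array's lower quartile on all 4, and the mean of the 5 was 4.15 to 4.58 in the wild type and 4.26 to 4.49 in the knockout. Cd68, a lysosomal protein of macrophages, was the highest of them, at 7.10 and 5.54 in the wild type and 7.15 and 6.13 in the knockout. The 4 mature fat cell markers were Adipoq, Plin1, Fabp4 and Lep. Their mean was 4.78 to 4.88 in the wild type and 3.97 to 4.08 in the knockout, without overlap. The members were uneven, with differences of -2.03 for Fabp4, -0.71 for Plin1, -0.43 for Adipoq and -0.03 for Lep.

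Most genes that passed the test on day 2 were lower in the knockout. At an adjusted p under 0.05, limma called 59 of the 22180 genes on day 2 (0.266%). Of these, 52 were lower in the knockout (0.234%) and 7 were higher (0.0316%). Without the adjustment, 1808 genes (8.15%) had a p under 0.05, 4.45% lower and 3.71% higher. Over all genes tested, 51.6% of the differences were negative and the median was -0.01. All 59 called genes had wild-type and knockout arrays that did not overlap, a condition also met by 18.9% of all genes on the lower side and 17.4% on the higher side. The difference was at least 2-fold in 49 of them, and at least 4-fold lower in 7. In the replicate 1 pair taken alone 48 of the 59 differed by at least 2-fold, and in the replicate 2 pair 49 did. The genes were called on these same arrays, so the pairs are not a separate check. These are bulk RNA values, in which fewer cells of a type and less RNA per cell cannot be told apart.

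**Figure D1:**
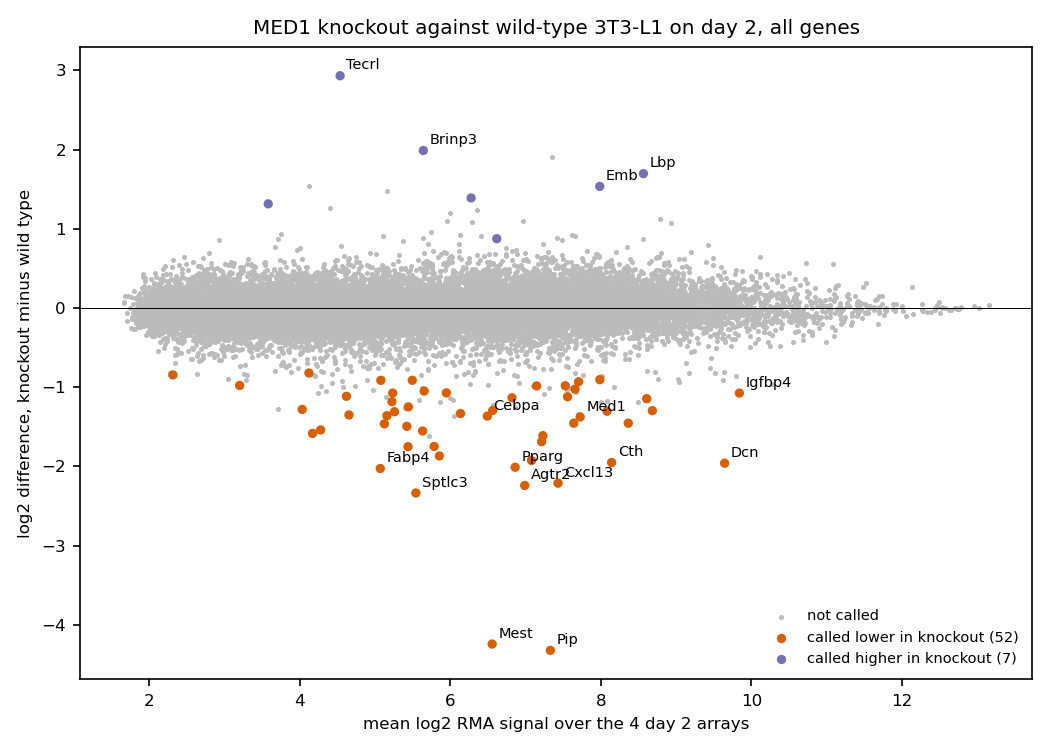
Each point is 1 of 22180 genes: the horizontal axis is its mean log2 RMA signal over the 4 day 2 arrays and the vertical axis the log2 difference, knockout minus wild type. The 52 genes called lower (orange) reach -4.32 at Pip, and the 7 called higher (purple) reach 2.93 at Tecrl, with called genes from dim to bright signal.

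Med1 itself read 8.55 and 8.28 in the wild type and 7.08 and 7.0 in the knockout. The knockout signal was 2.59-fold lower (log2 difference -1.38 ± 0.15, SE; adjusted p = 0.0078), and the groups did not overlap. The position of the edit is not given in the sources used here, and a transcript cluster also reads RNA of an edited gene that carries no functional protein. Med1 was the single gene called among 33 measured Mediator subunits, whose median difference was 0.00. The next lowest subunit was Med9 at -0.40 (adjusted p = 0.41), named here after its value was seen. Limma called 0 of the 11 measured genes listed as near Med1 in gene order (0 at an unadjusted p under 0.05), and their differences ran from -0.14 to 0.23. Other neighbours in RefSeq order were the microRNA gene Mir5119, at 0.62 ± 0.42 (adjusted p = 0.78), and Plxdc1, at -0.15 ± 0.21, both named after their values were seen. Its nearest neighbours in the RefSeq annotation of GRCm38.p6, Fbxl20 and Cdk12, each had a difference of 0.23. Of 20 nuclear receptor coactivators and corepressors, 0 were called by limma, and the median was 0.09. At an unadjusted p under 0.05, 1 was lower and 5 higher, beside 4.45% and 3.71% of all genes.

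Among 26 measured adipogenic transcription factors, 3 were called lower and 0 higher, against 0.234% and 0.0316% of all genes. Pparg, the master regulator of the fat cell fate, read 7.94 and 7.80 in the wild type and 5.84 and 5.87 in the knockout. Both knockout arrays stood about where the wild type stood on day 0, at 5.93 and 5.76. The day 2 difference was -2.01 ± 0.13 (SE; adjusted p = 0.00037), a 4.03-fold lower signal, and -1.92 in the replicate 2 pair. Cebpa, its partner in holding the fat cell state, read 7.17 and 7.18 in the wild type and 5.88 and 5.74 in the knockout, a difference of -1.36 ± 0.13 (adjusted p = 0.0039). Stat5a, a cytokine-activated factor that promotes fat cell formation, read 8.25 and 8.10 against 7.21 and 7.27 (-0.93 ± 0.14, adjusted p = 0.034). On day 0 Stat5a had a difference of 0.00.

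The factors that act earlier did not pass. Cebpb read 8.86 and 9.24 in the wild type and 8.86 and 8.91 in the knockout, so the groups overlapped (-0.16 ± 0.15, adjusted p = 0.85). Cebpd had a difference of 0.29 ± 0.21, and Klf5, another early activator, of -0.03 ± 0.17. Rxra, the partner with which PPARG binds DNA, had a difference of -0.34 ± 0.14 (adjusted p = 0.56) with arrays that did not overlap, and Srebf1, a regulator of lipid synthesis, of -0.77 ± 0.25 (adjusted p = 0.45). The list's median was -0.08. Lower without overlap were 8 of the 26, beside 18.9% of all genes, and 7 were lower at an unadjusted p under 0.05, beside 4.45%.

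Limma called 0 of 24 genes known as brakes on adipogenesis. At an unadjusted p under 0.05 stood 4, all higher, beside 3.71% of all genes. Id2, an inhibitor of helix-loop-helix factors, had the largest value, 1.12 ± 0.21 (adjusted p = 0.099), with 8.44 and 8.01 in the wild type and 9.67 and 9.03 in the knockout. Dlk1, the preadipocyte protein that holds back differentiation, had a difference of -0.31 ± 0.21. Gata2 and Gata3, which repress Pparg, had differences of -0.01 and 0.06. Without overlap, 8 of the 24 were higher and 2 lower, beside 17.4% and 18.9% of all genes. Of 34 nuclear receptors, Pparg alone was called, and Nr2f1 (COUP-TFI), chosen after its value was seen, stood just outside the threshold on the higher side (0.81 ± 0.13, adjusted p = 0.052).

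Promoter sequence was set beside these genes because CEBP proteins precede Pparg in the cascade and members of that family are known to bind the core TTGCNNAA. RefSeq promoters of GRCm38.p6, 250 bases before to 50 after a start, were found by symbol for 41 of the 59 called genes. The core, searched on both strands, occurred in 10.3% of 20611 promoters of measured genes and in 13 of the 52 promoters of the called genes. Counted by gene, it was in 11.7% of all genes and in 11 of the 41 called genes. These were Mest, Sptlc3, Cxcl13, Pparg, Cidec, Saa3, Retnla, Syn2, Brinp3, Gstt1 and an olfactory receptor gene. Promoters of 4 genes called lower are printed, all taken from the 11 genes with the core. The genes are a regulator, a lipid gene and a pair of secreted defence proteins. Only promoters that hold the core are printed. They run 5′ to 3′ along the gene, and the capitals mark the core on either strand. The promoter of Pparg is chr6:115421816-115422115 on the plus strand, that of Cidec chr6:113434715-113435014 on the minus strand, that of Saa3 chr7:46715627-46715926 on the minus strand and that of Cxcl13 chr5:95956689-95956988 on the plus strand.
Pparg: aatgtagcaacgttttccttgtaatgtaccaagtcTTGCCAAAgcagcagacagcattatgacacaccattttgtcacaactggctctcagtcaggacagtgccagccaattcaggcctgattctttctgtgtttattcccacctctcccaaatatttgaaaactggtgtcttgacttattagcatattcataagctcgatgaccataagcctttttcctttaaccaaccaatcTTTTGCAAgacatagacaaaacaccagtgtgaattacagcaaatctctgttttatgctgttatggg
Cidec: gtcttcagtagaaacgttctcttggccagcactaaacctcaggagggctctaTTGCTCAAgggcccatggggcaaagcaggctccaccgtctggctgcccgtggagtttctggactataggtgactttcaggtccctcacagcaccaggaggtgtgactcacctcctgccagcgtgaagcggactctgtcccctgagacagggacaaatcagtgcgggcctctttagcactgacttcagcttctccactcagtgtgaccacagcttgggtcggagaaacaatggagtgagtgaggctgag
Saa3: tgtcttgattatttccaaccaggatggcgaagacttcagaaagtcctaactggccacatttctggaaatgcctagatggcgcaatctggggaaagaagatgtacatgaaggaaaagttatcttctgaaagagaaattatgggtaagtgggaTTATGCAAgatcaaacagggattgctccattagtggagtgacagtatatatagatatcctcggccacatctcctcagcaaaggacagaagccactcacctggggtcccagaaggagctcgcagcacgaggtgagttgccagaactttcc
Cxcl13: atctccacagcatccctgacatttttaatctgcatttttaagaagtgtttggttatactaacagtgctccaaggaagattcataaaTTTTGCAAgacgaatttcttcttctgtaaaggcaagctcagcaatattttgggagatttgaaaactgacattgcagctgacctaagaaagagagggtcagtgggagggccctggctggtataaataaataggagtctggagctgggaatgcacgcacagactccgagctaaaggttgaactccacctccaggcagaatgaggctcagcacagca
The Pparg promoter, 1 of 3 that RefSeq gives for the gene, held the core at 215 and at 16 bases before the start. In Cidec, where it is 1 of 2 promoters, the core began 198 bases before the start, in Saa3 99 and in Cxcl13 164. The other promoters of Pparg and Cidec did not hold the core. Of the other motifs, TATAAA was in 12.3% of all promoters and in 7 of the 52, and DR1, the spaced direct repeat that PPARG and RXR bind, was in 11 promoters of all genes and 0 of the 52. Also searched were the cAMP response element, found in 2.32% of all promoters, and the glucocorticoid receptor motif, found in 0.466%. Each of these was in 0 of the 52 promoters of the called genes. A match of letters describes the sequence and is not a measured binding site.

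Of the genes of lipid storage, 3 were called lower. Fabp4, a fatty acid carrier and a direct PPARG target, read 6.40 and 5.77 in the wild type and 3.92 and 4.20 in the knockout (-2.03 ± 0.24, adjusted p = 0.012). Cidec, which fuses lipid droplets, read 5.68 and 6.04 against 4.28 and 4.51 (-1.46 ± 0.18, adjusted p = 0.016). Dgat2, which adds the last fatty acid of triglyceride, read 6.06 and 6.30 against 5.12 and 5.14 (-1.05 ± 0.13, adjusted p = 0.016). In each of them every knockout array lay below every wild-type array, and the replicate 2 pair gave -1.56, -1.52 and -1.16.

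Each of these 3 was the one member of its list to be called, beside 0.234% of all genes called lower. The lists held 14 genes of fatty acid uptake, 17 of the lipid droplet and 15 of triglyceride synthesis, with medians of -0.13, -0.07 and -0.02. Lower without overlap were 7, 5 and 5 of them, beside 18.9% of all genes, and 3, 4 and 3 were lower at an unadjusted p under 0.05, beside 4.45%. Just outside the threshold lay Agpat2, which makes the phosphatidic acid precursor of triglyceride, with 8.11 and 8.11 against 6.98 and 7.23 (-1.0 ± 0.16, adjusted p = 0.051). Gpat3, at the first step of that route, had -0.88 ± 0.15 (adjusted p = 0.072), and Fabp5, a relative of Fabp4, had -1.61 ± 0.29 (adjusted p = 0.081). These 3 were chosen after their values were seen. Plin1, the droplet coat protein of mature fat cells, had -0.71 ± 0.20 (adjusted p = 0.35), and Lpl, which frees fatty acids from lipoproteins, -0.86 ± 0.30 (adjusted p = 0.49). Limma called 0 of 20 genes of fatty acid synthesis (2 at an unadjusted p under 0.05, median 0.00) and 0 of 17 of cholesterol synthesis (0 at an unadjusted p under 0.05, median 0.00). Among the first, Fasn, the fatty acid synthase, had -0.26 ± 0.20 and Scd1, a desaturase, -0.94 ± 0.42.

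The fat cell hormones gave 2 calls among 19 measured adipokines, both lower, beside 0.234% of all genes called lower. Retn, which encodes resistin, read 5.77 and 5.78 in the wild type and 4.53 and 4.87 in the knockout (-1.07 ± 0.16, adjusted p = 0.037). Apln, the peptide apelin, read 6.15 and 6.67 against 4.77 and 4.95 (-1.55 ± 0.25, adjusted p = 0.048), close to the threshold. Retnla, a relative of resistin, was dim in the knockout and at least 1.12-fold lower (adjusted p = 0.037). Adipoq was near the lower quartile of its arrays, at 3.74 and 4.19 against 3.38 and 3.69.

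**Figure D2:**
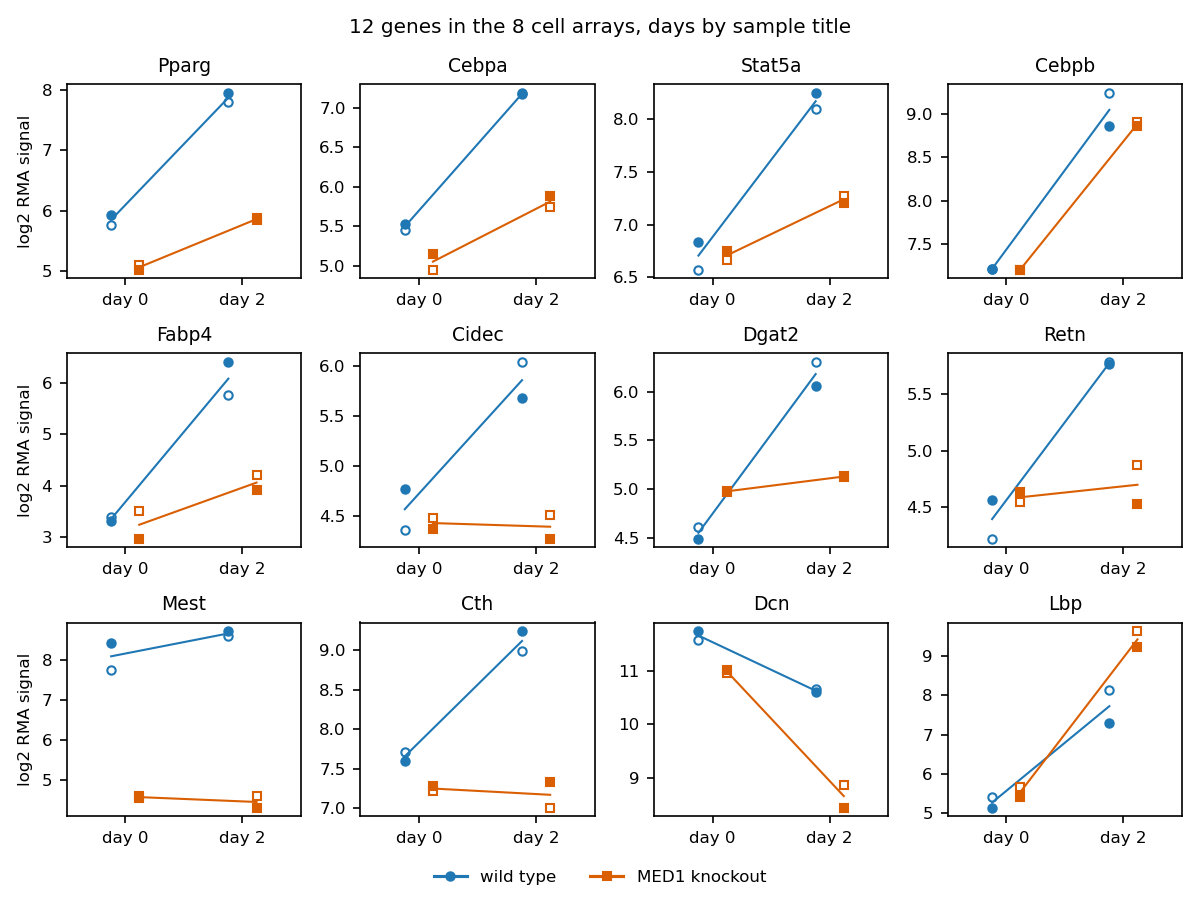
Log2 RMA signal of 12 genes on each of the 8 cell arrays, by title day; circles are wild type, squares MED1 knockout, filled symbols replicate 1, open symbols replicate 2, and lines join the group means. The genotypes are apart on day 2 in all panels but Cebpb, and on day 0 Pparg, Cebpa, Mest, Cth and Dcn lie lower in the knockout without overlap and Dgat2 higher, with Cebpb and Lbp apart by less than the symbol size.

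Mitochondrial genes gave 1 call. Pdk4, the kinase that blocks pyruvate entry into the citric acid cycle, read 8.82 and 8.65 in the wild type and 7.41 and 7.46 in the knockout (-1.30 ± 0.17, adjusted p = 0.021). It was the one gene called among 25 of the citric acid cycle and pyruvate entry and among 26 of fatty acid oxidation. Of all genes, 0.234% were called lower. In the first of these lists 16 of 25 members lay lower without overlap, beside 18.9% of all genes, and the median was -0.18. At an unadjusted p under 0.05, 7 of the 25 and 3 of the 26 were lower, beside 4.45% of all genes. In the 38 nuclear-encoded subunits of the respiratory chain limma called 0 (1 at an unadjusted p under 0.05), 14 lay lower without overlap and the median was -0.13. The medians of the citric acid cycle and respiratory chain lists in the replicate 2 pair were -0.20 and -0.24. Ucp1 and the other thermogenic genes, 21 in all, gave 0 calls by limma and a median of -0.08. Of the 21, 3 were lower at an unadjusted p under 0.05, beside 4.45% of all genes.

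Cell cycle genes had mostly negative differences. Of 43 genes of the cell cycle and DNA replication, 41 had a negative difference and 32 lay lower without overlap, beside 51.6% and 18.9% of all genes. The median was -0.44. Averaged over its members, the list read 7.03 and 6.95 in the wild type and 6.68 and 6.49 in the knockout, without overlap. Limma called 0 of the 43, and 20, all lower, had an unadjusted p under 0.05, beside 4.45% of all genes. Mcm6, a subunit of the replicative helicase, read 7.91 and 7.99 against 7.31 and 7.09 (-0.75 ± 0.13, adjusted p = 0.066), and Ccne1, the cyclin of S phase entry, 6.48 and 6.44 against 5.82 and 5.77 (-0.66 ± 0.12, adjusted p = 0.074). With days by the source label the median was -0.35, and on day 0 by title it was -0.19. 3T3-L1 cells divide after the hormones before they differentiate, and cell number was not measured.

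The gene with the lowest fold change was Pip, a secreted prolactin-inducible protein, which read 9.85 and 9.14 in the wild type and 5.80 and 4.54 in the knockout. The signal was 20-fold lower (-4.32 ± 0.37, adjusted p = 0.0024). On day 0 the same gene lay between 2.93 and 3.38 in all 4 arrays, and its difference there was 0.09. Mest, a paternally expressed imprinted gene that marks expanding fat tissue, read 8.73 and 8.63 against 4.30 and 4.58, an 18.9-fold lower signal (-4.24 ± 0.21, adjusted p = 0.00013). Unlike Pip, it was apart on day 0 too, at 8.45 and 7.76 in the wild type and 4.58 and 4.54 in the knockout.

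Sptlc3, a subunit of serine palmitoyltransferase, the first enzyme of sphingolipid synthesis, had the widest knockout spread of the genes called lower: 6.45 and 6.98 in the wild type and 5.03 and 3.72 in the knockout (-2.34 ± 0.37, adjusted p = 0.044). It was the one gene called of 26 in sphingolipid synthesis, beside 0.234% of all genes called lower. In that list 8 had a negative difference, beside 51.6% of all genes, and the median was 0.06. Without overlap, 5 of the 26 lay lower and 9 higher, beside 18.9% and 17.4% of all genes. Agtr2, a receptor for angiotensin II, read 8.11 and 8.11 against 5.75 and 5.99 (-2.24 ± 0.26, adjusted p = 0.012). Cxcl13, the chemokine that draws B cells, read 8.58 and 8.49 against 6.02 and 6.63 (-2.21 ± 0.25, adjusted p = 0.012). The wild type had been at 4.76 and 4.62 on day 0 for Cxcl13, so both groups were well above that on day 2. Cth, cystathionine gamma-lyase, which makes cysteine and hydrogen sulfide, read 9.24 and 9.0 against 7.33 and 7.01 (-1.95 ± 0.15, adjusted p = 0.0016).

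**Figure D3:**
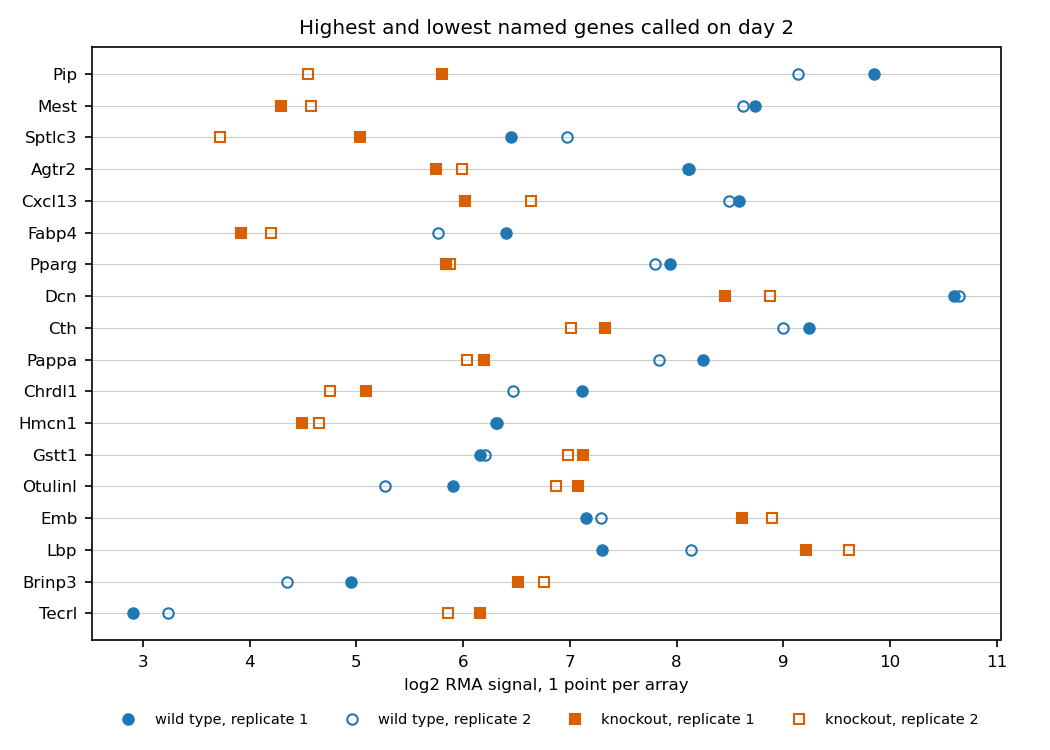
Log2 RMA signal on each of the 4 day 2 arrays for the 12 named genes with the lowest fold change (Pip to Hmcn1) and the 6 named genes called higher (Gstt1 to Tecrl). Circles are wild type and squares MED1 knockout, filled for replicate 1 and open for replicate 2; in every row the groups are apart, and Sptlc3 and Pip have the widest gap between knockout replicates.

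Extracellular matrix genes included a cluster of neighbours. Dcn, Lum and Kera encode small leucine-rich proteoglycans that bind collagen fibrils, and they lie next to each other on the chromosome: in RefSeq gene order Lum is 1 place from Dcn and Kera 2 places from Lum. Dcn read 10.60 and 10.65 in the wild type and 8.45 and 8.88 in the knockout (-1.96 ± 0.16, adjusted p = 0.0016). Kera read 6.51 and 6.81 against 4.79 and 5.04 (-1.75 ± 0.22, adjusted p = 0.016). Lum was dim in the knockout, with 4.49 and 4.86 against 3.48 and 3.31, and at least 2.21-fold lower (adjusted p = 0.020). Epyc, the next proteoglycan gene in that row, was near the lower quartile in both groups (0.03 ± 0.18).

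The rest of the matrix was mixed. Of 38 genes of collagens and matrix assembly, 3 were called lower, with Hmcn1, a large matrix protein, beside Dcn and Lum; it read 6.31 and 6.32 against 4.49 and 4.64 (-1.75 ± 0.14, adjusted p = 0.0016). The 3 calls stand beside 0.234% of all genes called lower. The list had 12 members lower and 11 higher without overlap, beside 18.9% and 17.4% of all genes, and a median of -0.01. Col3a1, a fibrillar collagen, had 0.43 ± 0.18, and Col6a3, chosen after its value was seen, -0.82 ± 0.14 (adjusted p = 0.069). Adamts15, a protease of matrix proteoglycans, was the one gene called of 22 proteases and inhibitors (-1.31 ± 0.16, adjusted p = 0.016). Papss2, which makes the sulfate donor for proteoglycan chains, was lower as well (-0.98 ± 0.13, adjusted p = 0.020). Cd34, a surface protein of fat cell precursors, read 5.69 and 5.99 against 4.46 and 4.50 (-1.36 ± 0.14, adjusted p = 0.0066), whereas Pdgfra had a difference of -0.04.

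A second pair of neighbours was Syn2 and Pparg, 2 places apart. Syn2, which encodes the synaptic vesicle protein synapsin II, read 5.43 and 5.64 in the wild type and 4.54 and 4.71 in the knockout (-0.91 ± 0.14, adjusted p = 0.036). Timp4, which lies between them in gene order, had a difference of -0.13 ± 0.19. Mest had no called neighbour: Copg2 had -0.06 and Klf14 -0.24. Of 22 imprinted growth genes, 3 were called lower, Mest, Dcn and Peg10 (0.234% of all genes), and 11 lay lower without overlap (18.9% of all genes). Peg10, a gene derived from a retrotransposon, read 9.40 and 8.97 against 8.05 and 8.02 (-1.14 ± 0.16, adjusted p = 0.025), while Sgce, its imprinted neighbour, had a difference of 0.06 ± 0.15.

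Genes of growth factor supply and reception were also among those called lower. Of 14 genes of the IGF system, 2 passed, beside 0.234% of all genes called lower. They were Pappa, a protease that cleaves IGF binding proteins, and Igfbp4, the binding protein it is best known for cleaving. Pappa read 8.25 and 7.83 in the wild type and 6.20 and 6.04 in the knockout (-1.92 ± 0.17, adjusted p = 0.0034). Igfbp4 read 10.33 and 10.43 against 9.30 and 9.31 (-1.07 ± 0.12, adjusted p = 0.012). Both were apart in every array. Chrdl1 (-1.87 ± 0.28) and Bmper (-0.98 ± 0.13), which bind bone morphogenetic proteins outside the cell, passed too. Of 32 Wnt genes limma called 0, beside 0.266% of all genes. At an unadjusted p under 0.05, 2 were lower and 3 higher, beside 4.45% and 3.71% of all genes. Rspo3, which amplifies Wnt signals, had the largest value on the higher side (1.20 ± 0.20, adjusted p = 0.061).

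Receptors called lower spanned several families. Beside Agtr2 they were Ptgfr, the receptor of prostaglandin F2alpha, at 9.24 and 8.95 in the wild type and 7.68 and 7.60 in the knockout (-1.45 ± 0.17, adjusted p = 0.012). S1pr3, a sphingosine-1-phosphate receptor, had -1.30 ± 0.14 (adjusted p = 0.0078). The growth factor receptors Fgfr3 and Egfr had -1.18 ± 0.14 and -1.12 ± 0.14, the melanocortin receptor Mc5r -1.07 ± 0.16 and the death receptor Tnfrsf21 -0.90 ± 0.13. Agtr2 and Ptgfr were the genes called of 19 in the prostaglandin and angiotensin lists, beside 0.234% of all genes called lower. Agt, the precursor of angiotensin, lay just outside the threshold (-1.17 ± 0.19, adjusted p = 0.051).

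Defence genes were called in both directions. Of 17 acute phase and innate defence genes, 2 were called lower (Pip and Saa3) and 1 higher (Lbp). The shares over all genes were 0.234% lower and 0.0316% higher. Saa3, an inducible serum amyloid A, read 6.47 and 7.14 in the wild type and 5.53 and 5.41 in the knockout (-1.33 ± 0.20, adjusted p = 0.036). Lbp, which carries bacterial lipopolysaccharide to its receptor, read 7.30 and 8.14 against 9.21 and 9.62 (1.70 ± 0.26, adjusted p = 0.039). The list's median was -0.33, with 7 members lower and 3 higher without overlap, beside 18.9% and 17.4% of all genes. Of 30 glucocorticoid and cAMP response genes, which read the hormone cocktail itself, Saa3 and Pdk4 were called lower; Fkbp5 had -0.12 ± 0.17 and Glul 0.42 ± 0.14, and the median was -0.08. Cxcl13 was the one gene called of 27 chemokines and cytokines. Of 35 interferon response genes limma called 0 on day 2 (3 at an unadjusted p under 0.05), with a median of -0.11 on day 2 and -1.10 on day 0.

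Enzymes of glutathione and xenobiotic metabolism and other drug-oxidising enzymes were called in both directions. Lower were Ces2g, a carboxylesterase (-1.61 ± 0.22, adjusted p = 0.025), Adh1, which oxidises retinol and other alcohols (-1.49 ± 0.19, adjusted p = 0.019), and Fmo4, a flavin monooxygenase (-0.82 ± 0.13, adjusted p = 0.047). Gstt1, a glutathione transferase, was higher, at 6.16 and 6.2 in the wild type and 7.13 and 6.99 in the knockout (0.88 ± 0.13, adjusted p = 0.032). Of 35 genes of glutathione and xenobiotic metabolism, Ces2g, Adh1 and Gstt1 were called, beside 0.266% of all genes called in either direction. Cygb, a globin of fibroblasts, read 8.0 and 8.12 against 6.34 and 6.40 (-1.69 ± 0.16, adjusted p = 0.0038). Dapk1, a kinase of cell death pathways, was dim in the knockout and at least 2.71-fold lower (adjusted p = 0.0049). Krt15 was the one gene called of 15 epithelial markers (-1.35 ± 0.17), and Epcam and Cdh1, defining markers of epithelium, had differences of 0.00 and -0.01. The other genes called lower were Nxf3, Pi15, Tspan18, Reep6, Cachd1 and H1f5, with differences from -1.54 (Nxf3) to -0.91 (H1f5).

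Apart from Lbp and Gstt1, 4 named genes were higher. Tecrl, an enoyl-CoA reductase-like protein of the endoplasmic reticulum, was dim in the wild type, at 2.91 and 3.24, and read 6.15 and 5.86 in the knockout. It was at least 5.57-fold higher (adjusted p = 0.00013). Brinp3 read 4.95 and 4.35 against 6.52 and 6.76 (1.99 ± 0.25, adjusted p = 0.016). Emb, the membrane protein embigin, which escorts lactate transporters, read 7.15 and 7.29 against 8.62 and 8.89 (1.54 ± 0.23, adjusted p = 0.039). A second, dimmer transcript cluster of Emb differed by -0.37, in the opposite direction. Otulinl read 5.90 and 5.26 against 7.08 and 6.87 (1.39 ± 0.21, adjusted p = 0.039).

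**Figure D4:**
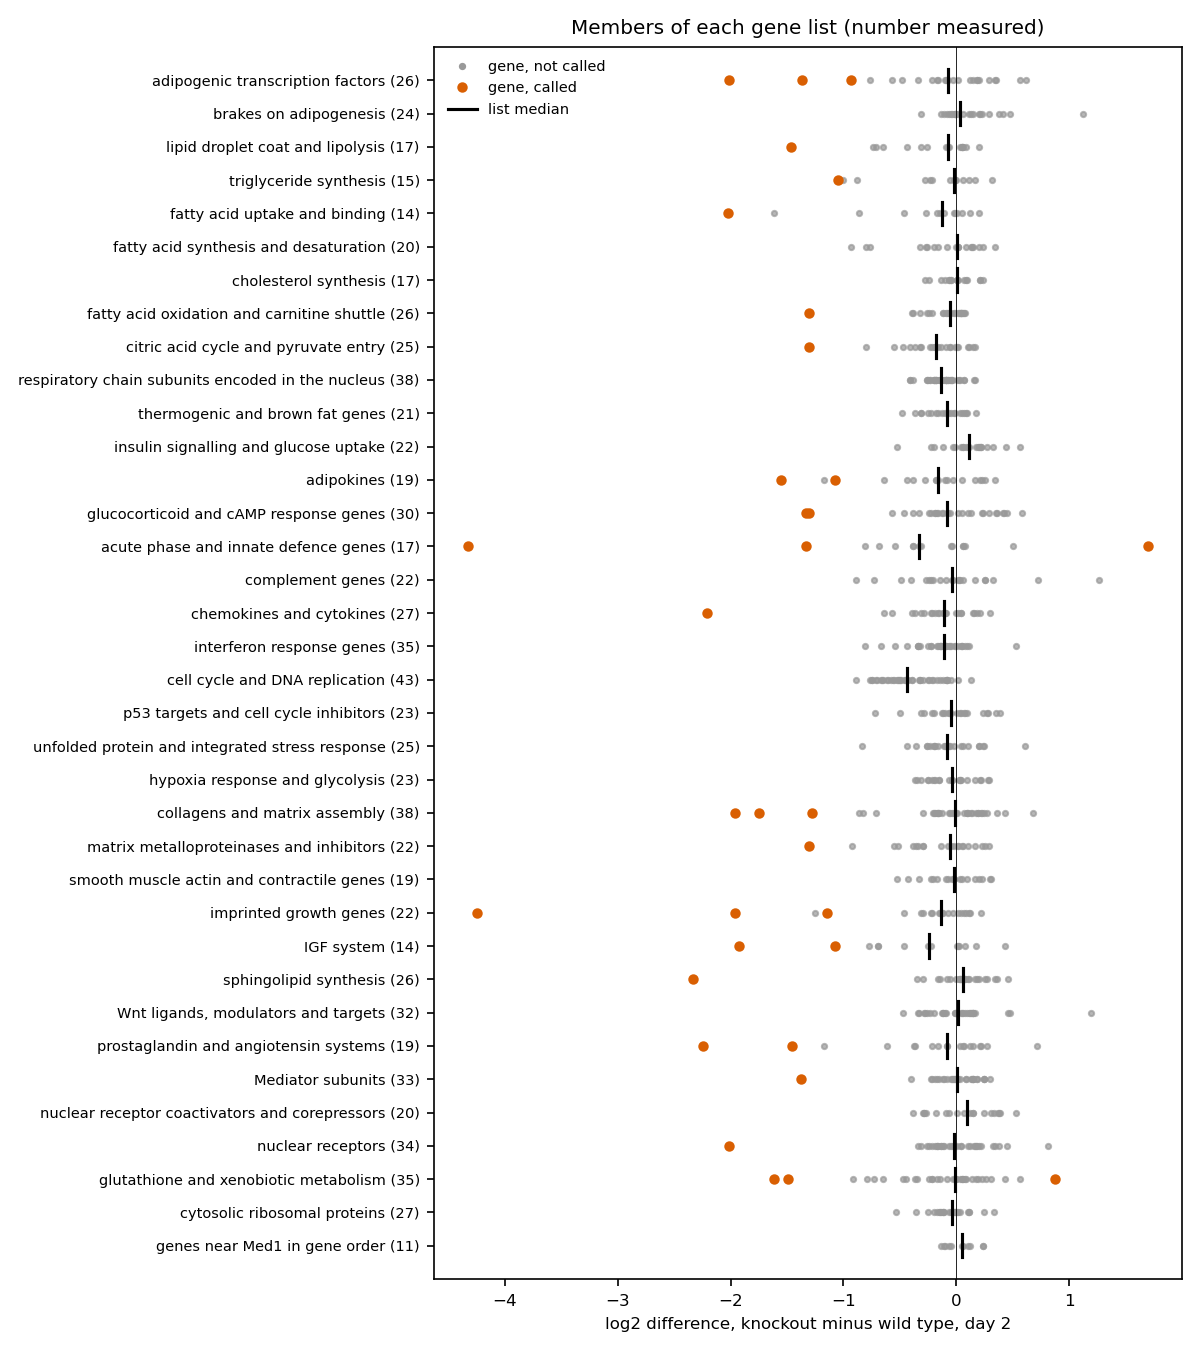
Each row is a gene list with the number of measured members in brackets, each point a member's log2 difference (knockout minus wild type, day 2), orange where limma called it, and the bar the list median. Most medians lie near 0, with -0.44 for the cell cycle and -0.33 for acute phase genes. Some called genes, such as Sptlc3 at -2.34, lie far from the rest of their list. Others lie among members that were not called: among adipokines, Retn was called at -1.07 and Agt, at -1.17, was not.

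Comparison with day 0, whose arrays are different ones by title, sets these differences beside those before the hormones. On day 0 limma called 41 genes (0.185%), 35 lower (0.158%) and 6 higher (0.0271%). Of the 59 genes called on day 2, 14 were called on day 0 as well, each in the same direction: 23.7% of the day 2 calls and 34.1% of the day 0 calls. They were Mest, Sptlc3, Hmcn1, Cygb, Ces2g, Dapk1, Nxf3, Pi15, Med1, Cd34, Pdk4, Igfbp4, Tecrl and Brinp3. Tecrl, for example, read 2.93 and 3.04 in the wild type and 5.42 and 5.39 in the knockout on day 0. Fabp4, Cidec and Dgat2 are not in this group. Of the 59, 52 had the same sign of difference on both days, a share that was not counted over all genes.

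The day 0 calls were fewer when an array was left out: 3 without knockout day 0 replicate 1, 5 without wild-type day 0 replicate 2 and 6 without knockout day 0 replicate 2, and 7 with the day 0 arrays alone. Some day 2 calls missed the day 0 threshold with like signs, such as Ptgfr (-1.03, adjusted p = 0.071), Egfr (-0.86, 0.063) and S1pr3 (-0.82, 0.087).

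For other genes the day 0 difference was close to 0. Fabp4 and Pip lay under the lower quartile of all 4 day 0 arrays, so a difference between the genotypes could hardly be read there, and their values were -0.11 ± 0.24 and 0.09 ± 0.37. Brighter genes on day 0 were Cxcl13, with differences of -0.14 ± 0.25 on day 0 and -2.21 ± 0.25 on day 2, Saa3 0.05 ± 0.20 and -1.33 ± 0.20, and Emb 0.06 ± 0.23 and 1.54 ± 0.23. Dgat2 had 0.42 ± 0.13 on day 0 and -1.05 ± 0.13 on day 2. Pparg lay between, with -0.79 ± 0.13 on day 0 (adjusted p = 0.065). The test of the difference between the days, the genotype by day term of the same fit, called 0 genes of 22180 (0.0%), with 941 (4.24%) at an unadjusted p under 0.05. Its value was -4.41 for Pip (adjusted p = 0.10), -1.47 for Dgat2 (0.11), -1.54 for Cth (0.16) and -1.22 for Pparg (0.18). A fit of all 19 arrays called it for 11 genes, 5 with a negative and 6 with a positive value. Pip, Fabp4, Pparg and Adamts15 were among those with a negative value.

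**Figure D5:**
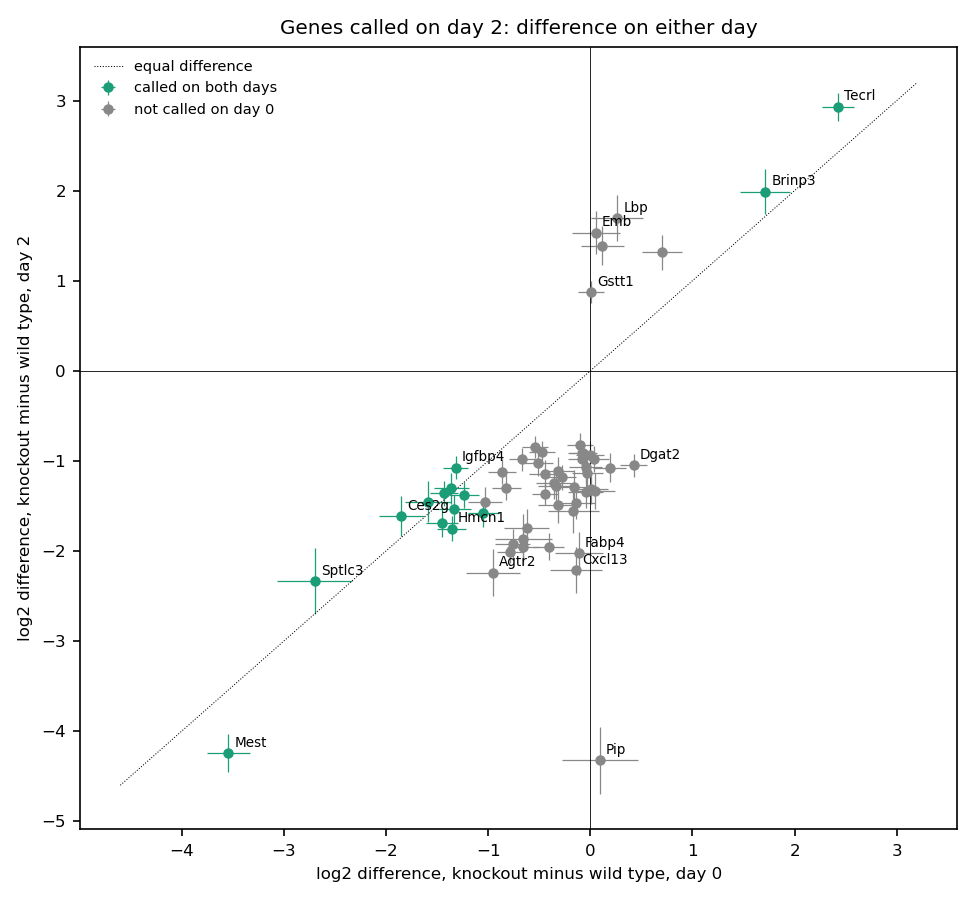
Log2 difference between knockout and wild type on day 0 (horizontal) and day 2 (vertical) for the 59 genes called on day 2, with bars of 1 SE; green points were called on both days. Mest, Sptlc3, Tecrl and Brinp3 lie near the dotted line of equal difference, while Pip and Fabp4 (both under the lower quartile on day 0), Cxcl13, Lbp and Emb lie near 0 on the day 0 axis.

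The day 2 calls were also read in brown fat of mice with floxed Med1. Med1 itself did not pass there: its difference was -0.35 ± 0.19 in the embryo (adjusted p = 0.37) and -1.24 ± 0.31 in the adult (adjusted p = 0.19). In E17.5 embryos with Myf5-Cre, which acts in muscle and brown fat precursors, tissue with both Med1 alleles floxed (4 arrays) was compared with tissue with 1 floxed and 1 wild-type allele (3 arrays), and limma called 257 genes (1.16%). Of the 59 genes called in the cells 3 were called there, and all 3 had the opposite sign: Pi15 (0.76 ± 0.12, adjusted p = 0.046), Igfbp4 (0.71 ± 0.09, adjusted p = 0.044) and H1f5 (1.03 ± 0.15, adjusted p = 0.046) were higher in the tissue with both alleles floxed. Pparg had -0.31 ± 0.08 there (adjusted p = 0.11), Cebpa -0.49 ± 0.12 and Pdk4 -1.31 ± 0.27 (adjusted p = 0.066). In 10-week adults with both alleles floxed, with (2 arrays) or without (2 arrays) Adipoq-Cre, which acts in mature fat cells, limma called 6 genes (0.0271%), 0 of them among the 59. Of the 59, 18 had an unadjusted p under 0.05 in the adult, beside 13.6% of all genes, and 9 of the 18 had the sign they had in the cells. Pparg had -0.70 there (adjusted p = 0.14), Cebpa -1.53 (0.11), Dgat2 -1.89 (0.096) and Pdk4 -1.72 (0.096), while Mest had 0.44 and Pip -0.07. Opposite in sign to the cells were Lum at 1.41 (0.075), Egfr at 1.22 (0.28), Ces2g at 0.91 (0.10) and Igfbp4 at 0.72 (0.12). These 4 were chosen after their values were seen.

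Most calls needed both day 2 pairs. With days by the source label, where each group holds 1 array of either title day and so both levels of Fkbp5 and Glul, limma called 0 genes and 490 had an unadjusted p under 0.05. With the replicate 2 pair alone, and the spread taken from the day 0 groups, 4 genes were called: Pip (-4.59), Mest (-4.05), Sptlc3 (-3.25) and Tecrl (2.62). Without knockout day 2 replicate 1, 12 genes were called, 11 of them among the 59; without knockout day 2 replicate 2, 13, all among them; without wild-type day 2 replicate 2, 21, of which 18 were; and without wild-type day 2 replicate 1, 38, of which 26 were. Each of Pip, Mest, Pparg, Dcn, Cth, Pappa, Hmcn1 and Tecrl kept its call without any 1 of the 8 cell arrays. At the threshold itself, the last genes inside were Sptlc3, Fmo4 and Apln, and the first outside Agpat2, Agt and Trabd2b.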

How the data were processed

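Per the labels' protocols, Trizol was used for extraction and the GeneChip WT PLUS kit for labelling. The values, 41345 transcript clusters by 19 arrays, are on a log2 scale as the authors deposited them. RMA and Transcriptome Analysis Console are named by the submitters' processing notes. RMA corrects background, brings arrays to one distribution and summarises probes, so a change shared by most genes would be reduced. The genome build is not given in the sources used here. Clusters with 1 gene symbol were kept (23521; 1814 had several, 16010 none), and where several clusters shared a symbol (1082 genes) the one with the highest mean over 19 arrays was used.

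Limma 3.58.1 in R 4.3.3 (lmFit, eBayes, two-sided) was fitted on 4 groups over the 8 cell arrays, which share 1 estimate of the spread, with Benjamini-Hochberg adjustment over 22180 genes and a threshold of 0.05. The fit was tested on simulated data. Embryonic and adult brown fat had a fit each. "At least N-fold" was used where the dimmer group was under the lower quartile on each of its arrays; this rule was chosen after seeing the values. Named genes were all called genes except olfactory and vomeronasal receptors, small RNAs and predicted or unnamed genes, fixed regulators, and, for a list with no call, up to 3 members with the largest statistic. The members, the 42 gene lists and the tests were chosen with earlier results of these data known. No filter on dim genes was set. Alternatives changed the day label, arrays, block, scaling, cluster choice and threshold. The number of arrays limits the precision.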

Additional observations from a re-analysis of the deposited data

Results flagged for a closer look

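Transcript clusters with several gene symbols or with none, 17824 in all, were outside the comparison of genes. In a fit over all 41345 clusters, chosen after seeing the data, 6 of them were called between the genotypes on day 2, and 977 had an unadjusted p under 0.05. They are unnamed here. The cause of these differences was not tested.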

How the results depend on the processing

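The 59 calls on day 2 became 0 with days by the source label, 32 in a fit of the 4 day 2 arrays alone, 120 in a fit of all 19 arrays, 15 at an adjusted p threshold of 0.01, 6 in a fit over all transcript clusters and 4 with the replicate 2 pair alone, the last 2 settings chosen after seeing the data. The fit over all clusters called 12 clusters: the 6 counted here, with 1 gene symbol, and 6 others with several or none. That fit had 2.78 prior degrees of freedom, against 5.24. Leaving out each of the 8 cell arrays gave 12 to 47 calls on day 2, 3 to 40 on day 0 (41 with all arrays) and 0 to 2 for genotype by day (0 with all). On day 0 the low values came without knockout replicate 1 (3), wild-type replicate 2 (5) and knockout replicate 2 (6). Day 0 calls became 1 with the source label, 7 with day 0 arrays alone and 88 with all 19 arrays, where 11 genotype by day terms were called. With replicate number as a block, 86 genes were called on day 2, 57 of them shared with the fit without it, 54 on day 0 and 1 by day (Pip). With wild-type and knockout arrays of 1 day and number as a pair, the block gave 115, 68 and 1. The labels do not say that numbers pair the cultures: deviations of same-numbered arrays correlated at 0.30 between genotypes on day 2, 0.35 on day 0, 0.17 between knockout days, 0.03 between wild-type days and 0.13 for both remaining pairs. Sptlc3 lost its call under both blocks and Apln under the first; Pcx and Rspo3 gained one under both, and Id2, Lpl, Scd1 and Serping1 with pairs. Centring, quantile scaling, trend and robust fitting, a filter on dim genes, the 2-fold minimum and other cluster choices gave 49 to 71 calls on day 2. No named called gene changed sign under any setting. As these genes were called on arrays that did not overlap, most settings could hardly have changed a sign.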
